A study of Mus musculus with 12 samples.

Results

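In brain DNA of 12 mice, 49 protein-coding promoters had a mean methylation level of 80% or more. They were 0.378% of the 12947 autosomal promoters that the sequencing covered. A member was an autosomal protein-coding transcript start in the GENCODE vM21 basic annotation (mm10) with at least 3 CpG rows within 500 bp. A CpG row is 1 cytosine of a CpG on 1 strand, and each had to be read at least 10 times in every animal. The mean over those rows and the 12 animals had to reach 80%, where a level is the share of reads that kept a C after bisulfite treatment. Starts of a gene whose windows overlapped counted once, so that 59 starts made 49 promoters of 49 genes on 19 chromosomes. Among the other promoters, 12639 lay under 20% and are called lowly methylated, and 259 lay from 20% to under 80% and are called partly methylated. Members were thus chosen by their measured levels, so levels and everything that follows from them are given as a description, without a test.

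The tissue was a dissected mixture of hippocampus and cortex from mice aged 11 months, 1 library per animal. Wild type (Wt) animals were 3 labelled female and 1 labelled male. Tg2576 (Tg) animals were 4 females and 4 males, and they carry a transgene for human amyloid precursor protein with a mutation of familial Alzheimer's disease, driven by a prion promoter. The labels name no treatment apart from age. Reduced representation bisulfite sequencing (RRBS) cuts DNA at CCGG, reads the ends of short fragments and so samples CpG-rich DNA most.

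CpG islands, dense runs of CpG, surround most mammalian promoters and are normally free of methylation. Promoters outside islands are often methylated where the gene is silent. A small class of island promoters, many of them of germ-line genes, is methylated in the early embryo and stays methylated and silent in somatic tissues such as brain. Methylation also covers the bodies of many active genes, so that a methylated start inside a gene can lie next to an unmethylated one. Expression was not analysed here, and bulk tissue does not tell a change in every cell from a change in the mix of cells.

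Coverage summed over all CpG rows of a library ranged from 33619981 to 131446104, where a read counts once at each row it covers. Rows in the members were read less than elsewhere, with a median over promoters of 25.4 reads per row against 48.6 over all promoters. Coverage summed over the rows of a member ranged from 30 to 893 in a library. The library labelled Wt male went against its label. Its mean level on chromosome X was 19.9%, against 20.7% to 23.0% in the females and 5.50% to 5.67% in the Tg males. It held 0.0696 chromosome Y rows per 1000 autosomal rows, inside the 0.0584 to 0.151 of the females and below the 0.347 to 0.503 of the Tg males. It is called the library labelled Wt male here, and the genotype mean, the promoter calls and the tests of single promoters are also given without it. Of 23 cell type marker genes, 11 had a covered promoter. The 5 neuronal ones, among them Snap25 and Map2, lay between 0.448% and 10.6%. Of 5 genes of other organs, only the epithelial keratin Krt5 was covered, and it lay at 79.3%, just outside the set.

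Levels within the set ran from 98.1% at Sohlh2 to 81.4% at Enpp7, with a median of 89.8%. In 23 members the mean was 90% or more, and 15 members held 80% or more in each of the 12 libraries. The remaining 34 fell under 80% in at least 1 animal, and 5 fell under 60% in at least 1. The 3 members just above the threshold were Enpp7 (81.4%), Fgf6 (82.1%) and Kcng1 (82.1%). Just below it were 1700028K03Rik (79.6%), Gucy2c (79.3%) and Krt5 (79.3%). Animals overlapped across the threshold on both sides, since Enpp7 ran from 53.3% to 100% and Krt5 from 56.9% to 94.4%.

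**Figure D1:**
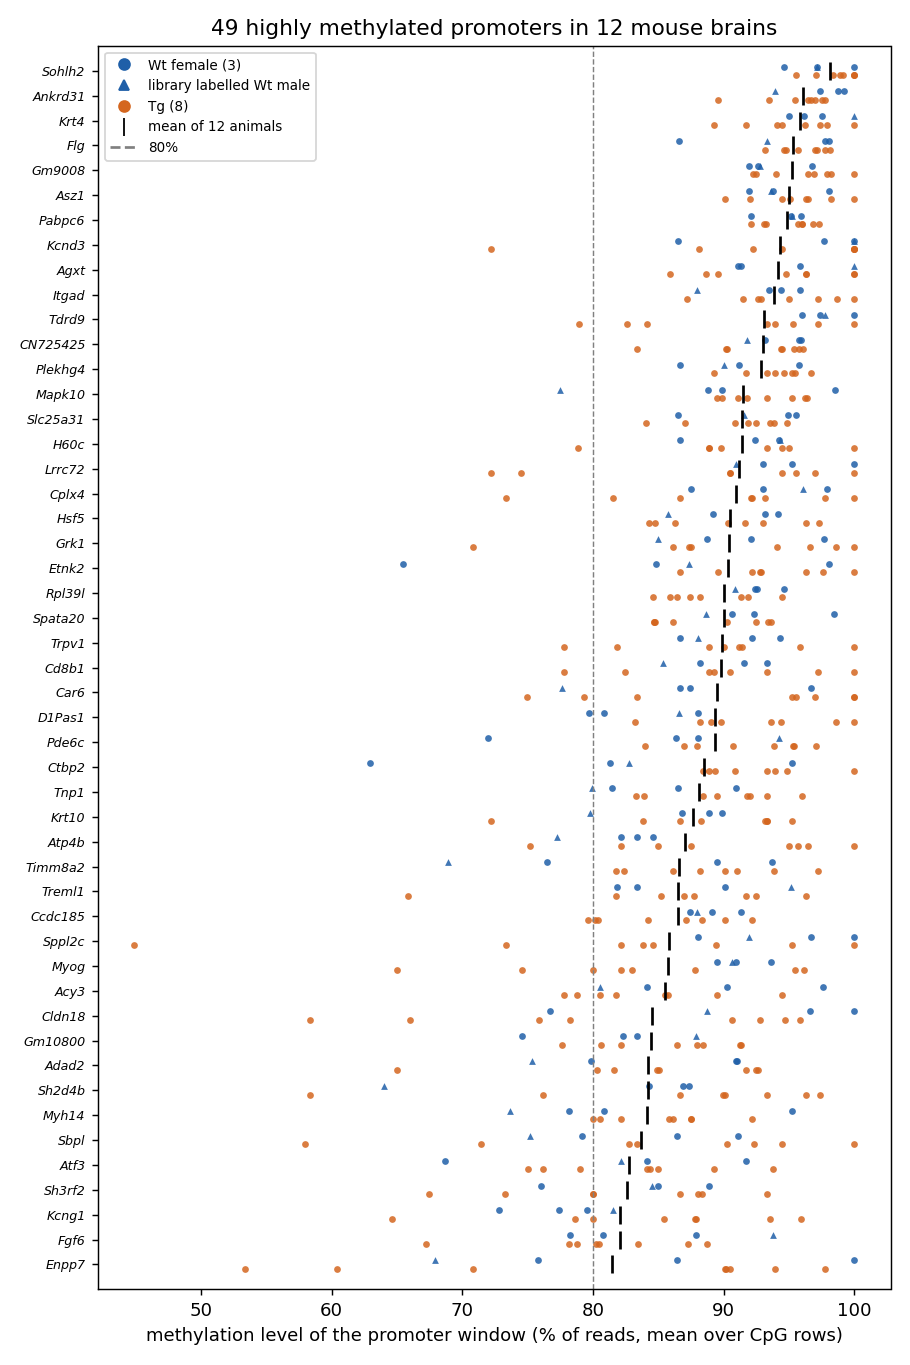
Methylation level of each of the 49 promoters (rows) in each animal, in % of reads averaged over CpG rows, with 1 point per animal, Wt blue and Tg orange, the library labelled Wt male as a triangle and the mean of 12 animals as a black bar. Levels at the top stay between 94.6% and 100% (Sohlh2), while those at the bottom spread from 53.3% to 100% (Enpp7).

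Sequence upstream of the start shows where the methylated CpGs sit. The 6 promoters below are, of the members named here, those with most CpGs in the 250 bases before the start that also had a measured row there. They are read from the GRCm38 reference (mm10), 5′ to 3′ on the strand of the gene and ending 1 base before the start, and capitals mark the CpGs that were measured. None of the bases lies in an annotated UTR.
Gm9008: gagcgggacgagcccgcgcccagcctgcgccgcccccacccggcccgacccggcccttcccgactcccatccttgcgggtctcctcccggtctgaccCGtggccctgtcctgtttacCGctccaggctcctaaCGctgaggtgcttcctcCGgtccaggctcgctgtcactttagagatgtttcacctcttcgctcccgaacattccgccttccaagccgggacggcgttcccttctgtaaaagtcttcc
Itgad: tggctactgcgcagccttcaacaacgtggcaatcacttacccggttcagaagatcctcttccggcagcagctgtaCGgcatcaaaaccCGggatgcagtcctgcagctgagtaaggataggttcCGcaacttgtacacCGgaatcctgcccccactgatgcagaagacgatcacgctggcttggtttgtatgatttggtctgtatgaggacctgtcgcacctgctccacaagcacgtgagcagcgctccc
D1Pas1: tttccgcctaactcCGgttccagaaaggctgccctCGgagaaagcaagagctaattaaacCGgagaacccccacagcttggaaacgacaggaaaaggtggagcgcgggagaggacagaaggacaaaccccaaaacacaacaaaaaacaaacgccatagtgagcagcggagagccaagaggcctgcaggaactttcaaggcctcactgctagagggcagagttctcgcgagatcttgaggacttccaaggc
Fgf6: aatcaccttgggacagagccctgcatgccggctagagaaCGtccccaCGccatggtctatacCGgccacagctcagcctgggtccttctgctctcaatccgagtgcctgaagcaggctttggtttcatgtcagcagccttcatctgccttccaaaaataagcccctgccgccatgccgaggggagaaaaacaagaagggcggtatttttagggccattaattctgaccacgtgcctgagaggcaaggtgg
Pabpc6: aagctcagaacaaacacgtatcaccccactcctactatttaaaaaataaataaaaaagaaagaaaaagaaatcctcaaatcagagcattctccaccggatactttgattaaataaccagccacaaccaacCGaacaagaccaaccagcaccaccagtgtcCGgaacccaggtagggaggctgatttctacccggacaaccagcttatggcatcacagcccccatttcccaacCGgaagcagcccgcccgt
Cldn18: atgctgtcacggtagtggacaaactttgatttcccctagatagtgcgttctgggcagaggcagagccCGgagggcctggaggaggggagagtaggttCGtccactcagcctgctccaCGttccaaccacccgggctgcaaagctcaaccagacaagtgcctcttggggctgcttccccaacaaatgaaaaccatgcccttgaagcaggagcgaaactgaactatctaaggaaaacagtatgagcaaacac

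The Gm9008 stretch (chr6:76497785-76498034, minus strand) was the richest, with 23 CpGs, and its 4 measured rows lay between 92.2% and 96.7%. Itgad (chr7:128154126-128154375, plus strand) held 13 CpGs, and 5 rows on 4 of them lay between 90.8% and 97.8%. The Itgad start lies inside the annotated span of a processed pseudogene, Gm17831, on the same strand. D1Pas1 (chr1:186967166-186967415, plus strand) held 11 CpGs, and its 4 rows ran from 77.1% to 94.9%. Its start lies within an antisense gene, Gm37912. In Fgf6 (chr6:127015336-127015585, plus strand) 3 of 9 CpGs were measured here, at 89.6% to 91.9%. One more Fgf6 row, 282 bp before the start and outside the printed stretch, had only 57.0%. Pabpc6 (chr17:9669718-9669967, minus strand) had 77.5% at the row 17 bp before the start but 96.0% and 97.8% at the rows 89 and 119 bp before it. Cldn18 (chr9:99710064-99710313, minus strand) had 3 measured rows at 82.5% to 87.4%. CpGs in lower case had no row with 10 reads in all libraries and were not analysed here.

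The 244 rows of the set had a median level of 92.3%, and 216 of them (88.5%) were themselves at 80% or more. None was under 50%. The lowest, 61 bp before the start of Tnp1, had 50.9%, while the other 4 Tnp1 rows, 145 to 177 bp after the start, had 96.5% to 98.3%. At the other end 3 rows, in Sohlh2, Pabpc6 and Atp4b, were fully methylated in every animal. More rows lay downstream of the start (184) than upstream (60), and in 32 members (65.3%) every row was downstream. The other classes also had more rows downstream. Members had 90 rows from the start to 249 bp after it and 49 in the 250 bp before it. The same stretches held 1100 and 688 rows in partly methylated promoters, and 271644 and 156830 in lowly methylated ones. How many other promoters had every row downstream was not counted. By the annotation 131 rows (53.7%) lay in coding exons, 34 in exons outside coding sequence and 79 in neither. In the 250 bp before the start, 14 members had rows, with a median over promoters of 90.3%, against 29.3% in partly and 0.788% in lowly methylated promoters. From the start to 249 bp after it, 25 members had rows, with a median of 91.1%, against 32.2% and 0.772%. The classes were defined by levels in the window that holds these rows, so this order was set by the rule.

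**Figure D2:**
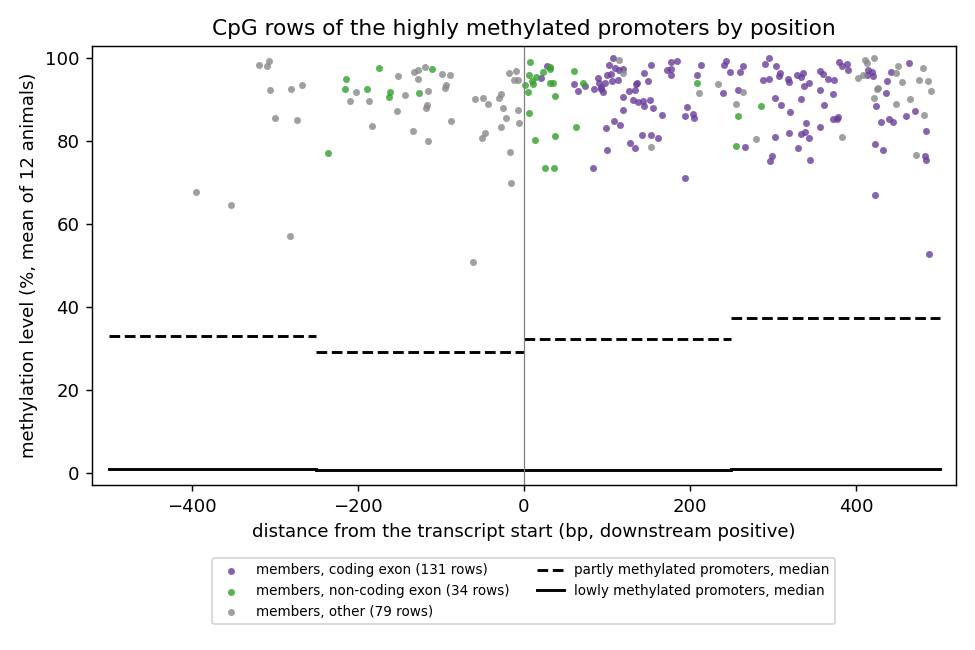
Mean level over 12 animals (%) of each of the 244 member rows against its distance from the transcript start in bp, coloured by annotation, with the median levels of partly (dashed) and lowly (solid) methylated promoters in bins. Member rows sit mostly above 80% on both sides of the start, with more rows downstream (184) than upstream (60). The classes were defined by levels in these windows, so their order is set by the rule, and the other classes also had more rows downstream.

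Only 11 members had rows outside the window and within 2000 bp of the start. There the picture was mixed, with 4 flanks at 80% or more, 4 between and 3 under 20%. Car6 had 87.3% over 2 flanking rows, whereas the 48 flanking rows of Etnk2, around another start of the gene, averaged 0.879%. In Plekhg4, which with Car6 is named after its values were seen, 34 flanking rows averaged 19%.

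Germ-line genes formed the largest group from the gene lists. Of 74 listed genes of germ cells and meiosis, 22 had a covered promoter, and 4 of their 24 promoters (16.7%) were members, beside 0.378% of all promoters. A further 6 were partly and 14 lowly methylated, and the median of the 24 was 5.95%. Sohlh2, a transcription factor of early germ cells, was the most methylated promoter of the set. Its Wt animals had 94.6%, 97.1% and 100% in females 1 to 3 and 97.1% in the library labelled Wt male, and Tg animals ran from 95.6% over a median of 99.0% to 100%. Asz1, a germ-cell protein of the pathway that silences transposons through piRNA, averaged 95%. Its Wt levels were 98.1%, 93.8%, 91.9% and 93.6% in the same order, and Tg levels ran from 90.1% over 95.7% to 100%. All Sohlh2 and Asz1 animals were above 90%, and the groups overlapped.

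Tdrd9, a helicase of the same piRNA pathway, averaged 93.0%. The Wt animals had 97.4%, 100% and 96.0% in females 1 to 3 and 97.7% in the library labelled Wt male, while Tg animals ran from 78.9% over 93.6% to 100%. In 6 of the 8 Tg animals the level was below the lowest Wt level. Slc25a31, the ADP/ATP carrier of testis, averaged 91.4% and ran from 84.0% to 95.6% over the 12 animals. Of 48 listed sperm genes, 18 had a covered promoter, and 16 of these were lowly methylated. The 1 member was Tnp1, which encodes a transition protein that replaces histones in spermatids. Tnp1 averaged 88.1%, with Wt levels of 86.5%, 81.4%, 90.9% and 79.9% and Tg levels from 83.3% over 90.6% to 96.0%. Its start also lies within an antisense gene, 1700027A15Rik.

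Several members outside the lists also belong to the germ line, a grouping made after the members were known and so not counted as a result. Ankrd31, a meiotic protein that helps to place recombination breaks, averaged 96.1%. Pabpc6 and D1Pas1, a poly(A)-binding protein gene and a DEAD-box helicase gene of testis, averaged 94.9% and 89.3%. Sppl2c, an intramembrane protease of spermatids, averaged 85.8%. Pabpc6 had the second largest number of rows, 14, and the smallest spread between animals, with an SD of 1.79 points. Its lowest animal had 92.1%. The largest number of rows, 17, belonged to CN725425, which had 93.0% and is named after its values were seen. The genes of 4 members (D1Pas1, Gm9008, Pabpc6 and Ccdc185) had no transcript with more than 1 exon. That was 8.16%, against 8.49% of partly methylated and 2.66% of all promoters. D1Pas1 and Pabpc6 have close relatives elsewhere in the genome, and whether reads of those were placed here was not tested. Gm10800, singled out after its values were seen, was the only member with more than 50% of its window (66.9%) in soft-masked repeats.

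Genes of lining tissues and blood made up most of the other listed members. Among 30 covered promoters of epithelial genes, 2 were members (6.67%, beside 0.378% of all promoters), Krt4 and Krt10. Another 2 were partly and 26 lowly methylated. Krt4, a keratin of internal stratified epithelia, had 97.5%, 96.2% and 95% in Wt females 1 to 3 and 100% in the library labelled Wt male, and Tg animals ran from 89.3% over 95.3% to 100%. Krt10, a keratin of the upper epidermis, averaged 87.6%, from 72.2% to 95.2%. The blood and immune list had 13 covered promoters, with 2 members (15.4%), 4 partly and 7 lowly methylated. The members are Cd8b1, a chain of the T-cell co-receptor CD8 (89.8%), and Treml1, a receptor of platelets (86.5%). Muscle and heart genes had 15 covered promoters, 11 of them lowly methylated. The 1 member was Myog, a transcription factor that drives muscle differentiation (85.7%). Liver, pancreas and kidney genes had 11 covered promoters and no member, although Agxt, a peroxisomal enzyme of liver outside that list, had 94.1%.

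On the lists of genes of brain cells no covered promoter was a member. This held for 36 covered promoters of neuronal genes (median 1.17%), 14 of oligodendrocyte genes (1.40%), 11 of astrocyte genes (1.01%) and 1 of a microglial gene. The 26 housekeeping promoters had no member either, with a median of 0.684%. One oligodendrocyte promoter, of Mbp, and 1 astrocyte promoter, of Aldh1l1, were partly methylated, at 43.5% and 26.1%. Among families named by symbol, keratins had 2 members of 14 promoters, potassium channels 2 of 77, solute carriers 1 of 250 and claudins 1 of 10. None of 282 zinc finger (Zfp) promoters and none of 38 histone promoters was a member. These counts stand beside 0.378% of all covered promoters. At that share, having no member does not set the lists and families of this paragraph apart.

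Some member genes are known from brain, and several had more than 1 start. In 17 member genes another start lay more than 1000 bp away, and 8 of these had such a start covered. All 8 had the other start under 20%, as did most covered promoters of any gene (12639 of 12947). The 11 such starts ranged from 0.561% to 4.73%. Kcnd3 encodes a potassium channel that shapes the firing of neurons. Its member start (position 105458782 of chromosome 3) had 94.3%, and the starts 6452 and 5696 bp upstream had 0.575% and 0.731%. This member start lies in an exon of another transcript of the gene. That held for 2 members (4.08%), 10.4% of partly methylated and 13.0% of all promoters. For Mapk10, the stress kinase JNK3 of neurons, the member start (103026995 of chromosome 5) had 91.5%, and starts 184339 and 184278 bp upstream had 3.59% and 4.73%. Ctbp2 encodes a transcriptional corepressor and, from another start, the ribbon-synapse protein RIBEYE. Its member start (133015248 of chromosome 7) had 88.5%, and starts 107918 and 108119 bp upstream had 0.839% and 0.865%.

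The same split was seen over shorter distances. Etnk2, an ethanolamine kinase of phospholipid synthesis, had 90.3% at its member start and 0.879% at a start 1760 bp upstream. Myh14, a non-muscle myosin, had 84.1% at the member start and 1.65% at a start 5340 bp upstream. Kcng1, a modifier subunit of voltage-gated potassium channels, had 82.1% at the member start and 1.04% at a start 11801 bp upstream. In 2 genes the unmethylated start lay downstream instead. Atf3, a stress-induced transcription factor, had 82.8% at its member start and 0.561% at a start 34699 bp further on. Krt10 had 87.6% at its member start and 0.733% at a start 3267 bp further on. At each of these 8 genes the lowest animal at the member start, at 63.0% or more, was far above the highest animal at the other starts, at 12.3% or less.

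**Figure D3:**
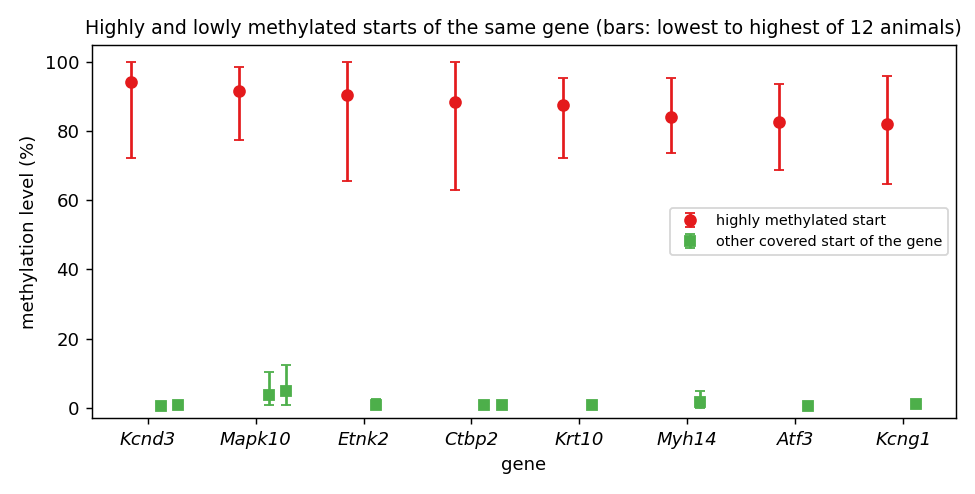
Methylation level (%) at the highly methylated start (red circle) and at the other covered starts (green squares) of the 8 genes, as the mean of 12 animals with bars from the lowest to the highest animal. The red bars do not reach under 63.0%, and the green bars do not reach over 12.3%.

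The letters around the starts differed from those of lowly methylated promoters. The ratio of observed to expected CpG, in 250 bases before to 50 after the start, had a median of 0.298 in the set, 0.369 in partly and 0.794 in lowly methylated promoters. A ratio over 0.6, typical of CpG islands, was found in 11 members (22.4%), 15.4% of partly and 79.5% of lowly methylated promoters. Over the whole window, 500 bp on either side, the medians were 0.383 in members, 0.346 in partly and 0.756 in lowly methylated promoters. There 7 members (14.3%) exceeded 0.6, beside 12.4% of partly and 81.2% of lowly methylated promoters. G and C made up a median of 54.3% in members, 56.3% in partly and 63.3% in lowly methylated promoters. The 11 members over 0.6 in the 300 bases were Adad2, Asz1, CN725425, D1Pas1, Flg, Gm9008, Hsf5, Itgad, Pabpc6, Rpl39l and Slc25a31, listed after their values were seen. Some of these, such as Flg (0.510) and Itgad (0.567), were under 0.6 over the whole window. Levels of the 11 ran from 84.2% to 95.3%. Flg, which encodes filaggrin of the epidermis, had 22 CpGs in these 300 bases and 95.3%. The Flg start in the set is 1 of 8 of the gene and lies more than 1000 bp from the most 5′ one. RRBS reads CpG-poor starts only where CCGG lies near, so the medians describe covered promoters and not all promoters.

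Motifs were searched in the same 300 bases on both strands. CACGTG, the E-box letters, were found in 7 members (14.3%), in 6.95% of partly methylated and in 9.96% of all covered promoters. In the printed stretches they begin 18 bases before the start in Itgad and 23 bases before it in Fgf6, and no measured CpG lay inside them. GGCGGGA, letters bound by E2F factors, were found in 4 members (8.16%), in 9.27% of partly methylated and in 23.5% of all promoters. TATAAA, the TATA box letters, were found in 5 members (10.2%), in 13.1% of partly methylated and in 5.69% of all promoters. CCGG was found in 28 members (57.1%), in 73.7% of partly methylated and in 88.9% of all promoters. Motifs can share end letters, as CCGG and GGCGGGA do, and each was counted separately. A start of an APPRIS principal transcript, the main isoform of a gene, was held by 42 members (85.7%). The share was 80.7% in partly methylated and 94.0% in all promoters. Within 1000 bp of the most 5′ start of the gene lay 38 members (77.6%), against 75.7% of partly methylated and 91.7% of all promoters.

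**Figure D4:**
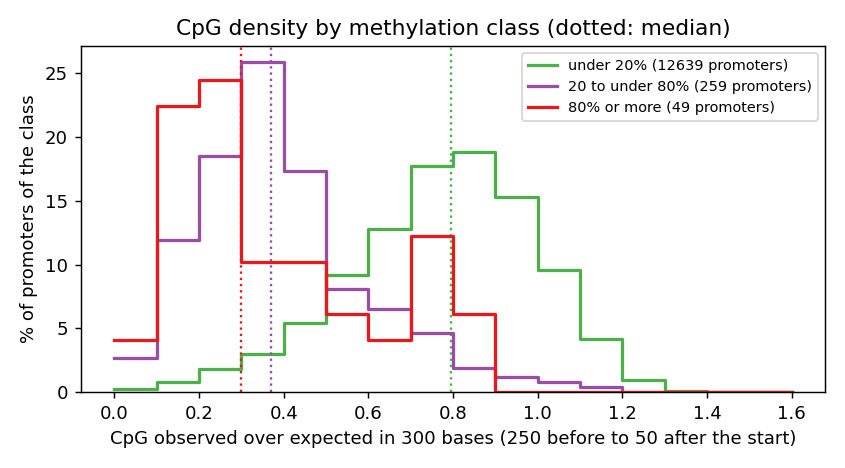
Share of promoters (%) by observed over expected CpG in the 300 bases around the start, for lowly (green), partly (purple) and highly (red) methylated promoters, with dotted medians. The red and purple medians, 0.298 and 0.369, lie far left of the green one, 0.794, and the 11 members over 0.6 form a red shoulder.

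Animals differed within members. The SD between the 12 animals had a median of 6.46 points, from 1.79 at Pabpc6 to 15.3 at Enpp7. If each row counted reads of its own, the median counting SD would be 2.90 points, and all 49 members exceeded theirs. If all rows of a window sat on the same reads, it would be 6.38 points, and 25 members exceeded theirs. How many reads neighbouring rows share, and how many are copies of 1 molecule, is not known, so counting error and differences between animals cannot be told apart here. The widest spreads belonged to Enpp7, an intestinal sphingomyelinase, Sppl2c (SD 15.1), Cldn18 (13.3), Sh2d4b (12.2) and Sbpl, a spermine-binding protein-like gene (11.5). Each of these 5 had 3 rows, and in the library with the least coverage it summed to 30 to 41 over the rows of these windows.

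Genotype was compared over animals. Averaged over the 49 members, Wt animals had 89.0% ± 1.34 (SD, n = 4). Tg animals had 89.3% ± 0.987 (SD, n = 8), a difference of 0.329 points. The lowest library was the one labelled Wt male, at 87.0%, and the highest was Tg female 3, at 91.1%. Without the library labelled Wt male the Wt mean was 89.7% ± 0.172 (SD, n = 3), and the difference became -0.338 points. The Wt animals were then all labelled female and the Tg animals of both sexes, so genotype and sex were not separated in it. No test is given for the mean over the 49 members, because it is a score over chosen members. Of the members, 24 were higher in Tg animals on average and 25 lower, and 35 differed by less than 5 points.

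Each promoter was then fitted with genotype and sex on its summed reads, over all 12947 promoters. A binomial model treats every read as independent, and a second model lets animals differ by more than counting error (overdispersion). A promoter was called at an adjusted p under 0.1 with a difference of at least 10 points. The binomial model called 19 promoters in all, 0.147% of those tested, and 4 of them were members. Another 14 lay among the 259 partly methylated promoters (5.41%) and 1 among the lowly methylated ones. The overdispersion model called none of the members and 0.0% of all promoters. At an unadjusted p under 0.05 it had 3 members, 6.12%, beside 6.18% of all promoters, and over the other 11 libraries, those apart from the one labelled Wt male, 1, Ctbp2 (2.04% beside 5.62%). In no member did the Wt and Tg levels separate fully, beside 0.232% of all promoters. Exact permutation over all splits of the 12 animals gave 2 members a p under 0.05 (4.08%), beside 4.33% of all promoters, with every adjusted p at 1. Over the other 11 libraries there were 3 members, Ctbp2, D1Pas1 and Pde6c (6.12%, beside 4.17%), and again every adjusted p was 1. Limma on logits called 0 promoters in all, and 2 members (4.08%) had an unadjusted p under 0.05, beside 4.54% of all promoters.

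The 4 members called by the binomial model alone were Ctbp2, Etnk2, Sppl2c and Cldn18. Ctbp2 had 95.2%, 63.0% and 81.3% in Wt females 1 to 3 and 82.7% in the library labelled Wt male. Tg animals ran from 88.4% over a median of 92.1% to 100%, so only Wt female 1 overlapped with them. Wt animals averaged 80.6% ± 13.3 (SD, n = 4), and Tg animals averaged 92.5% ± 3.91 (SD, n = 8). The read-weighted difference was 11.1 points (binomial model, adjusted p = 9.98e-05; overdispersion model, p = 0.0313 and adjusted p = 0.758). The exact permutation p was 0.0202, two-sided. Over the 11 libraries apart from the one labelled Wt male, the overdispersion p was 0.0259 (adjusted p = 0.840) and the exact permutation p 0.0485. Without Wt female 2 the difference fell to 5.55 points and the call was lost. The window lies inside the annotated span of Fgfr2 on the same strand, 108102 bp from its start.

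Etnk2 had 65.4%, 98.0% and 84.8% in Wt females 1 to 3 and 87.4% in the library labelled Wt male, against 86.7% over 92.8% to 100% in Tg animals. A single Wt animal, female 1, was far below the rest. Wt animals averaged 83.9% ± 13.6 (SD, n = 4), and Tg animals averaged 93.5% ± 4.34 (SD, n = 8). The read-weighted difference was 10.2 points (binomial model, adjusted p = 1.17e-05; overdispersion model, p = 0.0403 and adjusted p = 0.782). Exact permutation over the 12 animals gave a two-sided p of 0.0747. Leaving out the library labelled Wt male gave a difference of 14.2 points, and an overdispersion p of 0.0670 (adjusted p = 0.840). With 12 libraries less Wt female 1 the difference fell to 4.27 points, and the call was also lost without Tg male 1 (9.97 points), Tg female 2 (9.65) or Tg female 4 (9.93).

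Sppl2c went the other way. Its Wt levels were 88.0%, 100% and 96.7% in females 1 to 3 and 91.9% in the library labelled Wt male, and Tg levels ran from 44.9% over 84.2% to 100%. In 5 of the 8 Tg animals the level was below the lowest Wt level, and Tg male 1 was lowest. Wt animals averaged 94.1% ± 5.27 (SD, n = 4), and Tg animals averaged 81.7% ± 17 (SD, n = 8). The read-weighted difference was -10.2 points (binomial model, adjusted p = 0.000161; overdispersion model, p = 0.154 and adjusted p = 0.860). Without Tg male 1 it was -6.67 points, without Tg male 2 -8.84, without Wt female 2 -9.38 and without Wt female 3 -9.30, each below the 10 points of a call. Leaving out the library labelled Wt male gave -10.7 points, with an overdispersion p of 0.458 (adjusted p = 0.926). Exact permutation over all 12 animals gave a two-sided p of 0.176.

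Cldn18, a tight-junction claudin of stomach and lung, had 96.6%, 76.7% and 100% in Wt females 1 to 3 and 88.7% in the library labelled Wt male. Tg animals ran from 58.3% over 84.4% to 95.8%, and 3 of the 8 were below the lowest Wt animal. Wt animals averaged 90.5% ± 10.4 (SD, n = 4), and Tg animals averaged 81.5% ± 14.2 (SD, n = 8). For these means exact permutation gave a two-sided p of 0.281. The read-weighted difference, -14.4 points, was the largest of the 4 (binomial model, adjusted p = 1.28e-06; overdispersion model, p = 0.144 and adjusted p = 0.860). Without Tg male 3 it was -8.52 points and the call was lost. Dropping the library labelled Wt male gave -15.5 points, with an overdispersion p of 0.258 (adjusted p = 0.900), and all 4 binomial calls stood. The Cldn18 start also lies within an antisense gene, Gm16004, and methylation counts cannot assign a CpG to 1 of the genes.

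**Figure D5:**
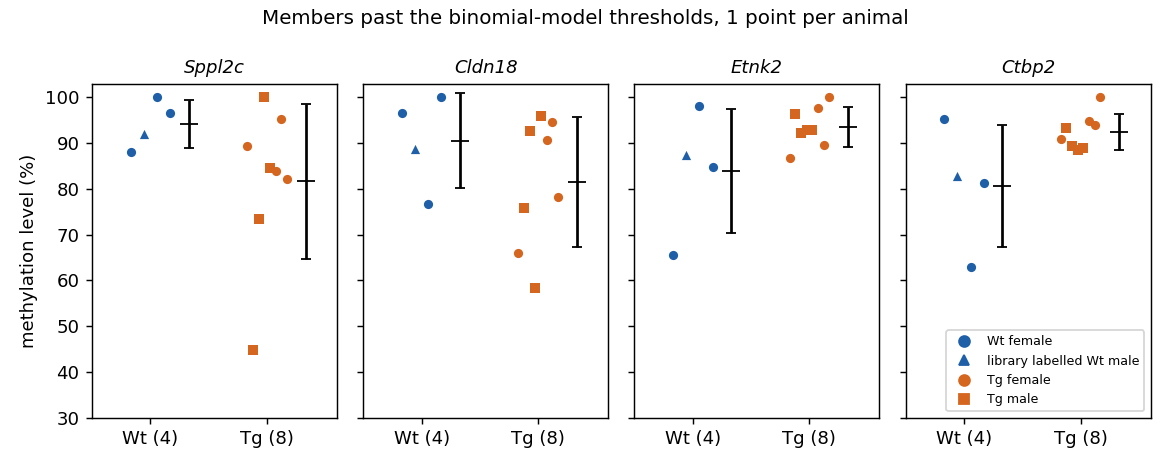
Methylation level (%) of the 4 members called by the binomial model, 1 point per animal for 4 Wt and 8 Tg animals, with the mean and SD beside each group. Wt and Tg points overlap in each panel, and 1 low animal stands out for Etnk2 (65.4%, Wt), Ctbp2 (63.0%, Wt) and Sppl2c (44.9%, Tg).

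Other named members had differences of like size without a call. D1Pas1, next in size of the mean difference, had 79.7%, 80.8% and 88.0% in Wt females 1 to 3 and 86.6% in the library labelled Wt male, against 83.2% over 91.7% to 100% in Tg animals. In 7 of the 8 Tg animals the level was above the highest Wt level. The mean difference was 8.33 points (exact permutation p = 0.0323, two-sided, adjusted p = 1) and the read-weighted one 7.15. Without the library labelled Wt male the mean difference was 9.26 points (exact permutation p = 0.0242). For Myog, Wt animals averaged 91.1% ± 1.74 (SD, n = 4) and Tg animals 83.0% ± 10.4 (SD, n = 8), a difference of -8.14 points, and -8.31 without the library labelled Wt male. The groups overlapped there too, with 6 Tg animals below the lowest Wt animal and 2 above the highest. Tdrd9 had the smallest overdispersion p of the set, 0.0298 (adjusted p = 0.756), with a read-weighted difference of -8.74 points. Without the library labelled Wt male these were 0.0606 (adjusted p = 0.840) and -8.70 points. D1Pas1, Myog and Tdrd9 fell short of 10 points by the read-weighted measure.

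Single CpG rows were fitted in the same way. The binomial model called 26 of the 244 member rows (10.7%), beside 1.48% of the 970775 autosomal rows and 8.72% of the 20751 rows at 80% or more. The share in the set was near that of rows of like level. Of the 26 rows, 16 were higher in Tg animals and 10 lower, and they lay in 19 members. Differences ran from -22.6 points, at the Cldn18 row 133 bp before the start, to 24.1 points, at the Ctbp2 row 423 bp after it. The Myog row 266 bp after the start had -19.2 points and the D1Pas1 row 236 bp before the start had 19.8. The overdispersion model called none of the member rows and 0.0% of all rows, and 28 member rows (11.5%) had an unadjusted p under 0.05, beside 10.9% of all rows.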

How the data were processed

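DNA methylation was measured by RRBS in 12 libraries, 4 Wt and 8 Tg, each from 1 animal. Per the labels and file headers, the authors aligned reads to mm10 with Bismark and deposited methylKit tables of raw counts per CpG cytosine, strands apart: coverage, Cs and Ts, with at least 10 reads (versions are not given in the sources used here). The tables were joined at the 970775 autosomal CpG rows present in all libraries. A level is Cs over coverage, averaged over the rows of a window of 500 bp on either side of a GENCODE vM21 basic start. No rounding or filter on high coverage was added, and no per-sample column was left unused.

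For each promoter and each row, summed Cs and Ts were fitted by binomial logistic regression with genotype and sex as labelled, and by the same model with overdispersion (F test, 9 residual degrees of freedom, dispersion of 1 or more). P-values were Benjamini-Hochberg adjusted over all promoters or all rows. Differences in tests are weighted by reads, and differences of group means weight rows and animals equally, so the signs can differ for small changes such as in Fgf6. Exact permutation was two-sided and had no sex term. Without the library labelled Wt male, the Wt animals were all labelled female. The fitted genotype term then rested on the females, while read-weighted differences still included the Tg males. Limma 3.58.1 on logits with a pseudocount of 1 was an alternative. Settings tried were the window, read and row minimums, the threshold, summed strands, females only, no sex term and leaving out each animal; permutation without the library labelled Wt male was added after the data were seen. The fits were checked on simulated data. Python 3.11.15, statsmodels 0.14.6, scipy 1.17.1 and R 4.3.3 were used.

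The members, gene lists and tests were chosen with earlier results of these data known. Named genes are the 10 most methylated members, the 3 promoters on either side of 80%, called members filled to 5 by the largest differences, the 5 with the largest SD, listed members, and those with another covered start under 20%. Sequences are of named members with most CpGs in the 250 bases before the start, and were further limited, after the data were seen, to stretches with a measured row and no annotated UTR. Counting SDs cover counting error only, and RRBS reads carry no molecular identifiers. Each library is labelled as a separate animal. The overdispersion, permutation and limma p-values use the spread between these animals. Binomial p-values do not, since they treat every read as independent.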

Additional observations from a re-analysis of the deposited data

Results flagged for a closer look

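Of 62 groups of animals checked for 1 library far from the others (Dixon's criterion), 4 had one, and chance gives about 1 in 20. In Kcnd3, Wt female 1 had 86.5% while the next Wt animal had 97.7%, and Tg female 2 had 72.2% while the next Tg animal had 88.1%. In Sh2d4b the library labelled Wt male had 64.0% while the next Wt animal had 84.3%. The same library also stood apart in the mean over the 49 members, with 87.0% against 89.5% in the next Wt animal, and it was the lowest of 4 Wt libraries in 21 members and the highest in 8. Its part in the genotype values was measured by leaving it out, which turned the mean difference from 0.329 to -0.338 points and kept the 4 calls.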

How the results depend on the processing

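No paired analysis was possible because replicate numbers were given in accession order and pair no animals. Membership depended on coverage: 49 promoters became 30 with a window of 250 bp, 18 with at least 5 rows and 2 (Tnp1 and Mapk10) with at least 20 reads, and 48 to 51 when each animal was left out. The 4 binomial calls became 0 with at least 20 reads, where only 2 members were left to test, 10 with a difference of at least 5 points, 2 with Bonferroni adjustment, 0 with limma and 2 to 4 when each animal was left out, with 2 without Tg male 1 and 2 without Wt female 2. The causes beyond fewer members or a looser limit were not tested. With females only, 5 members were called, Kcng1 and Myog newly and Sppl2c no longer, while calls over all promoters went from 19 to 46. The overdispersion model called 0 members in each of these fits that it was run in. The Tg minus Wt mean of 0.329 points became 4.18 over the 2 members with at least 20 reads, -0.254 in females only, and -0.338 to 0.616 when each animal was left out. The 26 called rows became 1 of 9 with at least 20 reads and 23 to 31 when each animal was left out. For the single promoters named, 396 differences kept direction and side of the threshold, 15 lost the threshold, 2 gained it and 37 changed sign. The 37 lay in 14 promoters, none of them called, whose read-weighted differences were 3.93 points or less in size, so no direction is given for these. In females only the signs changed to -0.456 points (Pabpc6), 2.73 (Agxt), -1.55 (Itgad), -0.530 (Mapk10), -3.11 (Slc25a31), 3.39 (Treml1), -3.22 (Myh14) and -0.418 (Sbpl). With limma they changed, on the logit scale, to -0.0820 (Pabpc6), -0.181 (Slc25a31), 0.0569 (Cd8b1), 0.174 (Krt10) and -0.0346 (Fgf6). When each animal was left out, differences ran from -0.353 to 2.27 in Flg, -0.518 to 0.593 in Pabpc6, -2.10 to 0.898 in Agxt, -1.37 to 1.55 in Slc25a31, -2.52 to 0.463 in Cd8b1, -2.31 to 1.15 in Krt10, -3.04 to 1.91 in Treml1, -1.40 to 3.93 in Sbpl, -2.10 to 5.42 in Atf3, -0.493 to 4.53 in Fgf6 and -5.69 to 7.04 in Enpp7. The cause of these changes was not tested. Depth limits the set, since the coverage of a window can sum to 30 in a library. Those are 3 rows of 10 reads, which can be the same reads.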

Other observations

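Both strands of a CpG were measured at 14 CpGs of the set. The strands differed by a median of 2.32 points, and by at most 12.6 points. Tg minus Wt differences had the same sign on both strands at 7 of the 14. Genes known from the retina were noticed among the members after their values were seen: Pde6c and Grk1 of phototransduction, Cplx4 of photoreceptor synapses, and Ctbp2. Their levels lay between 88.5% and 90.9%. The count was not set against a list, and expression was not analysed here.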
